A study of Canis lupus familiaris with 6 samples.

Results

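Immediate early transcription factors are the genes FOS, FOSB, FOSL1, JUN, JUNB, EGR1, KLF6, ATF3, IER2 and MYC, 10 of the 30951 genes listed for 2 canine melanoma cell lines. They were picked by symbol, with earlier comparisons of podoplanin knockout (KO) and control libraries already known, so their KO and control values are given below as a description with no test. Each symbol had a single row, and all 10 had enough counts to be kept among the 12270 genes tested. FOS and FOSB were kept although the CMM12 control held only 7 and 8 counts of them, because the filter needs enough counts in only 1 library.

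The lines are CMM12 and CMM2. Each was sequenced as 2 libraries with the genotype podoplanin KO, numbered KO 1 and KO 2, and 1 control library with the genotype WT. The labels give no treatment, time point or agent for any library, and within a line they differ only in genotype and number. Nothing in the labels says whether the KO lines are single clones or how the gene was disrupted, and nothing says that libraries came from separate cultures. The p-values below therefore measure only the spread between these libraries, which may be technical or clonal. In the models that add line to genotype or to KO number, that spread also holds any difference between the lines in these effects.

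Typical immediate early genes are transcribed within minutes of a growth factor, stress or adhesion signal, and no new protein has to be made first. Their promoters already carry serum response factor with ELK proteins or CREB. MAP kinases carry the signal to those promoters, and the messenger RNAs are short-lived, so their levels follow recent signalling and handling of the cells. Whether each member behaves in this way in these cells was not tested. FOS, FOSB and FOSL1 pair with JUN or JUNB as the leucine zipper dimer AP-1, ATF3 is a stress-induced relative of them, EGR1 and KLF6 are zinc finger factors, IER2 is a small nuclear regulator, and MYC binds DNA with MAX. In human melanoma, FOSL1 and JUN are known from the invasive cell state with little MITF.

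The libraries held 9732927 to 11807835 estimated counts, so that 3 counts correspond to 0.259 to 0.294 CPM (counts scaled to the library size with TMM factors). The podoplanin transcript (PDPN) stood at 9.98 CPM in CMM12 KO 2 and 15.2 CPM in CMM12 KO 1, against 87.8 CPM in the CMM12 control. It had 5.58 and 5.59 CPM in CMM2 KO 2 and KO 1, against 20.2 CPM in the CMM2 control, so the targeted transcript was lower in every KO library. Of the 7 melanocyte markers, SOX10, MLANA, TYR and DCT were under 1 TPM (abundance scaled for transcript length) in every library. MITF was present at 10.7 to 21.7 TPM and PMEL at 0.41 to 1.82 TPM. TYRP1 had 2.09 to 3.45 TPM in the CMM12 libraries and 0 in every CMM2 library. The label of melanoma thus rests on few pigment cell markers here. The leukocyte genes PTPRC and CD3E were at 0 throughout, LAPTM5 reached 5.27 TPM and CD79A had 3150 to 4542 TPM, a row whose overlap with other transcripts was not examined. Of the endothelial and epithelial markers, PECAM1, CDH5, TEK, EPCAM and KRT18 were under 1 TPM throughout, while KDR reached 2.12 TPM, VWF 1.64 TPM, CDH1 1.8 TPM and KRT14 13.03 TPM. KRT14 had 0.75 and 0.06 TPM in CMM12 KO 2 and KO 1, against 13.03 TPM in the CMM12 control. In RNA from whole cultures, fewer cells of a kind and less RNA per cell cannot be told apart.

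By level per transcript length, the members spanned almost the whole range of these cells. FOSL1 (ENSCAFG00000013132), the FOS relative also called FRA-1, averaged 300.1 TPM over the 6 libraries, above 95.9% of the tested genes. JUN (ENSCAFG00000018897), the main partner of the FOS proteins in AP-1, averaged 276 TPM. MYC (ENSCAFG00000001086) averaged 90.1 TPM, KLF6 (ENSCAFG00000005354) 70.3 TPM, JUNB (ENSCAFG00000028848) 69.5 TPM and IER2 (ENSCAFG00000023155) 64.6 TPM. ATF3 (ENSCAFG00000012339) lay near the middle of the tested genes at 23.6 TPM, with 54.5% of them below it. EGR1 (ENSCAFG00000001254) averaged 13.5 TPM, FOS (ENSCAFG00000017040) 3.17 TPM and FOSB (ENSCAFG00000004443) 1.03 TPM, with 41.0%, 18.6% and 9.21% of tested genes below them. The classical FOS and FOSB transcripts were thus the scarcest members, with 7 to 55 counts of FOS and 8 to 28 counts of FOSB in a library.

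The members that varied most between libraries were the scarce ones. The ratio of the highest to the lowest CPM over the 6 libraries was 19.9 for EGR1, 8.91 for FOS and 3.97 for FOSB. It was 3.35 for JUN, 2.83 for FOSL1, 2.76 for ATF3, 2.08 for JUNB, 2.03 for MYC, 1.98 for KLF6 and 1.96 for IER2. EGR1, FOS, FOSB, JUN, JUNB and ATF3 had their highest value in CMM12 KO 2, and FOS, FOSB, FOSL1, JUNB, KLF6 and IER2 had their lowest in the CMM12 control.

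**Figure D1:**
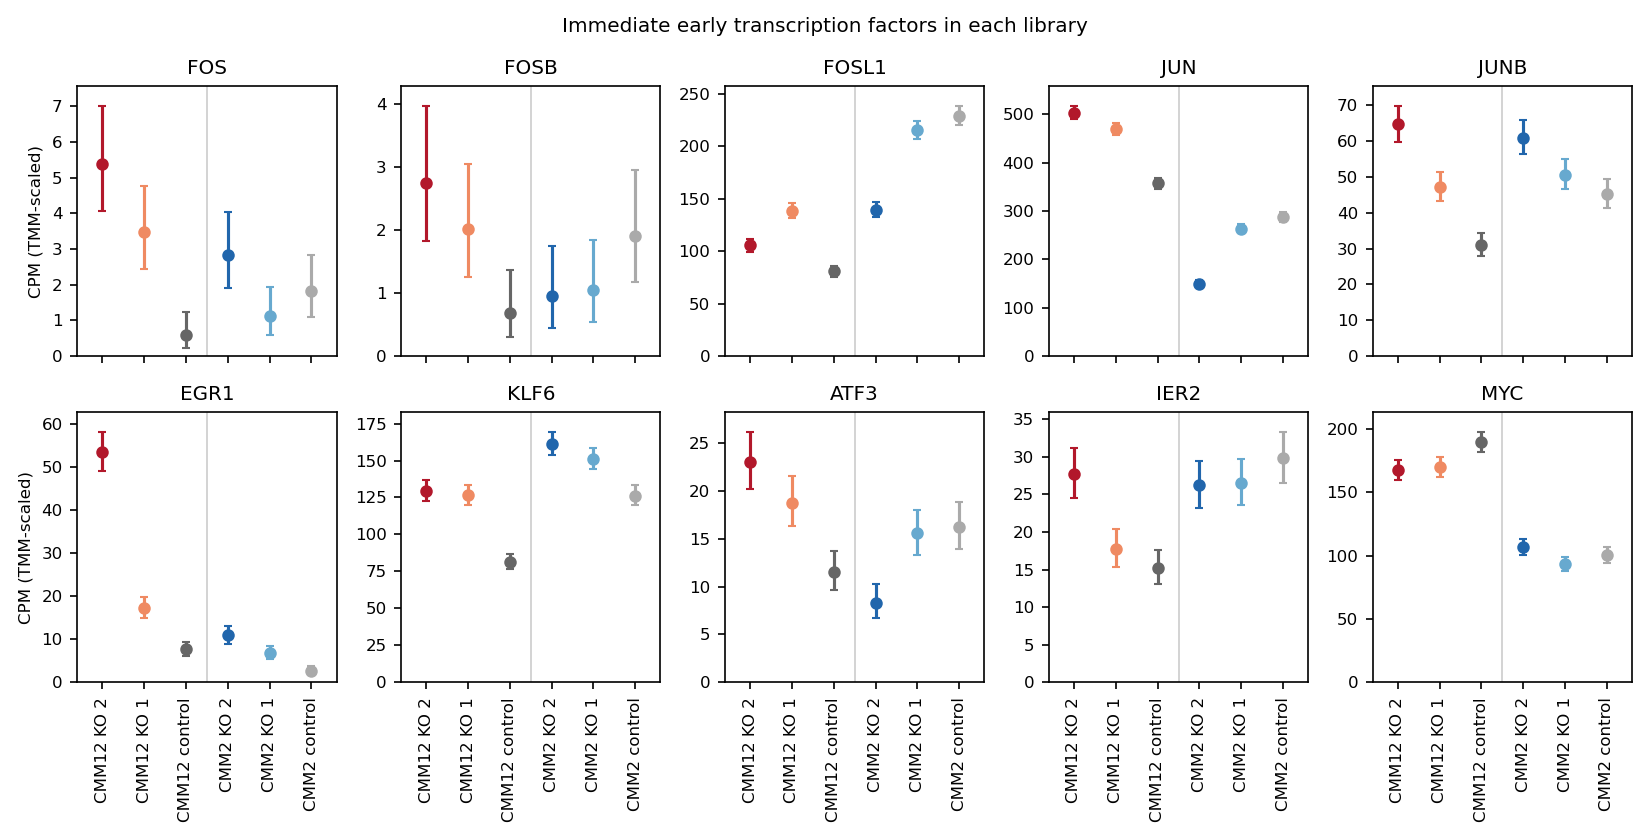
Each panel plots 1 member, with the 6 libraries from left to right (CMM12 KO 2, KO 1 and control, then CMM2 KO 2, KO 1 and control) and the level in CPM upward, and bars give the exact Poisson interval of the count. EGR1 reaches 53.3 CPM in CMM12 KO 2 and is lowest in the CMM2 control at 2.67 CPM, and MYC lies higher in all CMM12 libraries than in any CMM2 library.

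AP-1 dimers draw on the FOS and JUN families, so the make-up of each family was computed from TPM. FOSL1 was the leading FOS family transcript in all 6 libraries, with 81.0% of the family's summed TPM in CMM12 KO 2 and 75.9% in CMM12 KO 1, against 59.0% in the CMM12 control. In CMM2 its share was 79.1% in KO 2 and 87.3% in KO 1, against 89.2% in the control. The remainder was nearly all FOSL2, the other FOS relative without a strong activation domain, with 15.8% in CMM12 KO 2 and 22.5% in CMM12 KO 1, against 40.5% in the CMM12 control. The CMM12 KO libraries thus had a larger FOSL1 share and a smaller FOSL2 share than their control, and the CMM2 KO libraries the reverse. FOS itself made up 0.271% to 2.53% of the family.

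JUN led the JUN family in every library. It took 77.6% and 81.4% of the family's summed TPM in CMM12 KO 2 and KO 1, against 82.1% in the CMM12 control. In CMM2 it took 55.5% in KO 2 and 71.2% in KO 1, against 75.6% in the control. JUNB, a weaker activator than JUN, took 38.9% in CMM2 KO 2 and 23.8% in CMM2 KO 1, against 20.8% in the CMM2 control. CMM2 KO 2 stood apart from the other 5 libraries in this family, where JUNB took 12.2% to 23.8%. JUND made up 3.60% to 5.71% of the family.

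**Figure D2:**
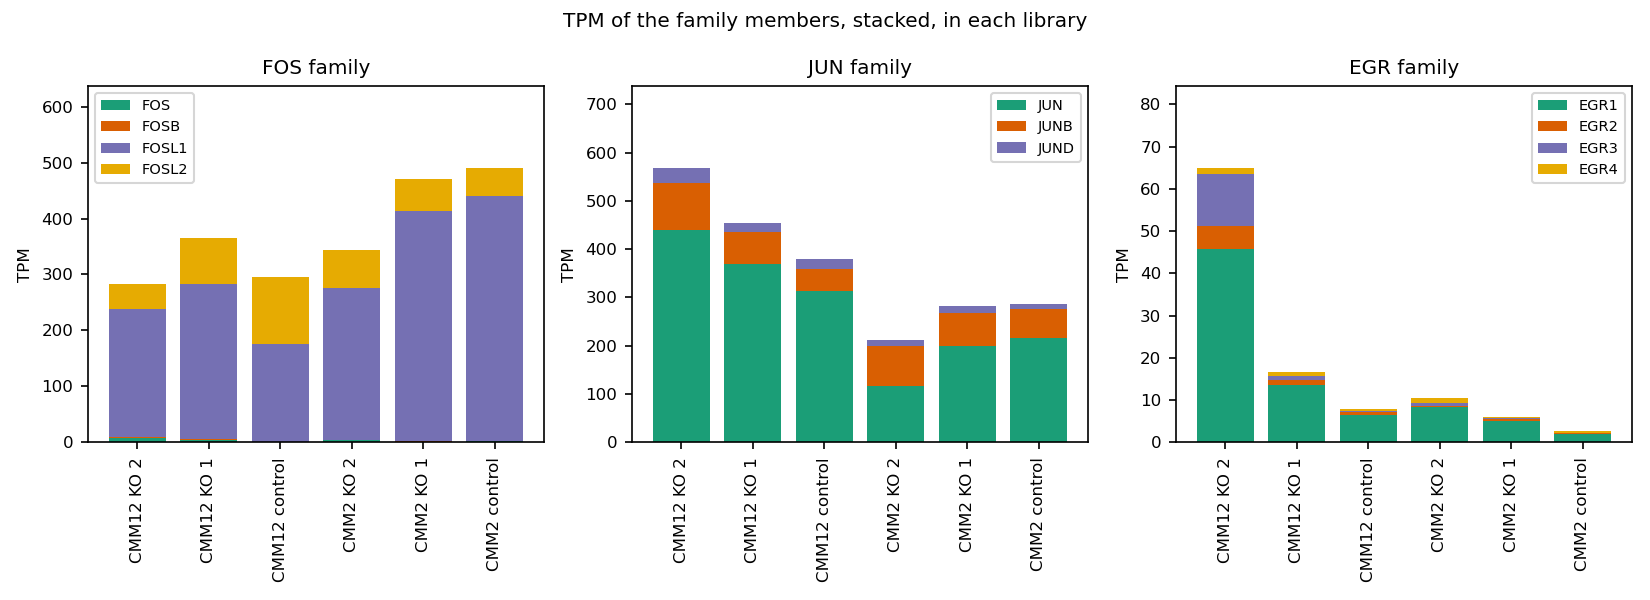
Stacked bars give the TPM of each gene of the FOS, JUN and EGR families in each library, in the order CMM12 KO 2, KO 1 and control, then CMM2 KO 2, KO 1 and control. FOSL1 and JUN fill most of their families' bars in every library, and the EGR family bar is tallest in CMM12 KO 2 at 64.9 TPM.

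In CMM12, the KO libraries were set against the control of the same line to see where the members stood after podoplanin loss. Every member except MYC had more CPM in both KO libraries than in the control, while 35.6% of all tested genes had that pattern, and 34.2% had fewer in both, as MYC did. The median log2 ratio of the 10 members to the control was 0.93 in KO 2 and 0.67 in KO 1, against 0.01 in each for the 11200 genes with reads in every library. The members were chosen with this contrast known, so nothing is read from the count.

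EGR1 had 53.3 CPM in CMM12 KO 2 (545 counts) and 17.2 CPM in KO 1 (189 counts), against 7.68 CPM in the control (89 counts). The ratios to the control were 6.94 (95% interval 5.54 to 8.79) and 2.24 (1.74 to 2.92), exact binomial intervals that cover counting error only, as do all intervals here. EGR1 was thus above the control in both KO libraries, and the ratio between KO 2 and KO 1, 3.09, exceeded that between KO 1 and the control.

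FOS had 5.38 CPM in CMM12 KO 2 (55 counts) and 3.47 CPM in KO 1 (38 counts), against 0.604 CPM in the control (7 counts). Its ratios of 8.91 (4.05 to 23.2) and 5.74 (2.53 to 15.2) rest on few counts in the control and carry wide intervals. FOSB had 2.74 and 2.01 CPM in KO 2 and KO 1, against 0.690 CPM in the control, with ratios of 3.97 (1.76 to 10.1) and 2.91 (1.25 to 7.55). Both genes were low in absolute terms even where they were highest.

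The abundant AP-1 members showed smaller ratios with narrow counting intervals. FOSL1 had 106 CPM in CMM12 KO 2 and 138 CPM in KO 1, against 80.8 CPM in the control, with ratios of 1.31 (1.20 to 1.43) and 1.71 (1.58 to 1.86). JUN had 503 and 469 CPM in KO 2 and KO 1, against 357 CPM in the control, with ratios of 1.41 and 1.31. JUNB had 64.6 and 47.2 CPM, against 31.0 CPM in the control, with ratios of 2.08 and 1.52. FOSL1 was higher in KO 1 than in KO 2, whereas JUN and JUNB were higher in KO 2.

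ATF3, which is induced by the integrated stress response, had 23.0 CPM in CMM12 KO 2 and 18.8 CPM in KO 1, against 11.6 CPM in the control. KLF6 had 129 and 127 CPM in KO 2 and KO 1, against 81.5 CPM in the control, so the KO libraries nearly coincided. IER2 had 27.7 and 17.8 CPM, against 15.2 CPM in the control, and its ratio in KO 1 had an interval that includes 1 (0.950 to 1.44). MYC had 167 and 170 CPM, against 189 CPM in the control, and was the one member below its control in both KO libraries, with ratios of 0.884 (0.829 to 0.942) and 0.897 (0.842 to 0.954).

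Fitted in a model of 4 group means with edgeR, whose spread comes from the KO pairs, the log2 fold change of KO over control in CMM12 was 2.85 for FOS (SE 0.96), 2.20 for EGR1 (SE 0.74) and 1.76 for FOSB (SE 0.89). It was 0.85 for JUNB (SE 0.32), 0.85 for ATF3 (SE 0.46), 0.65 for KLF6 (SE 0.23), 0.59 for FOSL1 (SE 0.35), 0.58 for IER2 (SE 0.37), 0.45 for JUN (SE 0.36) and −0.17 for MYC (SE 0.23). The median was 0.75 for the members and 0.02 for all tested genes. For all genes, edgeR's quasi-likelihood test at a Benjamini-Hochberg adjusted p of 0.05 called 1 of 12270 genes (0.00815%), DESeq2 called 45 (0.367%), and 735 had an unadjusted edgeR p under 0.05. The only control library of CMM12 enters every one of these values.

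In CMM2 the members split. EGR1, KLF6 and JUNB had more CPM in both KO libraries than in the control, a pattern shown by 30.1% of all tested genes. FOSB, FOSL1, JUN, ATF3 and IER2 had fewer in both, as did 30.9% of all tested genes, and FOS and MYC lay on opposite sides in the 2 KO libraries. The median log2 ratio of the members was −0.05 in KO 2 and −0.10 in KO 1, against −0.01 and 0.00 for the genes with reads in every library.

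EGR1 had 10.9 CPM in CMM2 KO 2 (115 counts) and 6.82 CPM in KO 1 (78 counts), against 2.67 CPM in the control (28 counts). Its ratios to the control were 4.07 (2.67 to 6.39) and 2.55 (1.64 to 4.08), so both intervals lay above 1. KLF6 had 161 and 151 CPM in KO 2 and KO 1, against 126 CPM in the control, with ratios of 1.28 (1.19 to 1.37) and 1.20 (1.11 to 1.29). JUNB had 60.9 and 50.6 CPM, against 45.2 CPM in the control, and its interval in KO 1 includes 1 (0.990 to 1.27).

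JUN had 150 CPM in CMM2 KO 2 and 263 CPM in KO 1, against 287 CPM in the control, with ratios of 0.523 (0.492 to 0.556) and 0.917 (0.872 to 0.965). FOSL1 had 139 and 215 CPM in KO 2 and KO 1, against 229 CPM in the control, with ratios of 0.609 (0.570 to 0.650) and 0.939 (0.887 to 0.994). ATF3 had 8.33 and 15.6 CPM, against 16.2 CPM in the control. For these 3 genes the distance from the control lay mostly in KO 2, while the KO 1 ratios were 0.917, 0.939 and 0.958.

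FOS had 2.84 CPM in CMM2 KO 2 (30 counts) and 1.14 CPM in KO 1 (13 counts), against 1.81 CPM in the control (19 counts), and both ratios had intervals that include 1. FOSB had 0.946 and 1.05 CPM in KO 2 and KO 1, against 1.91 CPM in the control, and its intervals also include 1. Both genes rest on 10 to 30 counts in each CMM2 library. IER2 had 26.2 and 26.6 CPM, against 29.8 CPM in the control. MYC had 107 and 93.4 CPM, against 100.4 CPM in the control, and the intervals of both genes include 1 in both KO libraries.

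The fitted log2 fold change of KO over control in CMM2 was 1.72 for EGR1 (SE 0.78), 0.31 for KLF6 (SE 0.23), 0.30 for JUNB (SE 0.31) and 0.13 for FOS (SE 0.83). It was −0.93 for FOSB (SE 0.80), −0.47 for JUN (SE 0.35), −0.44 for ATF3 (SE 0.44), −0.37 for FOSL1 (SE 0.33) and −0.18 for IER2 (SE 0.36), and MYC stood at −0.0050 (SE 0.23). The median was −0.09 for the members and 0.00 for all tested genes. For all genes, edgeR called 0 of 12270 (0%), DESeq2 called 6 (0.0489%), and 233 had an unadjusted edgeR p under 0.05.

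**Figure D3:**
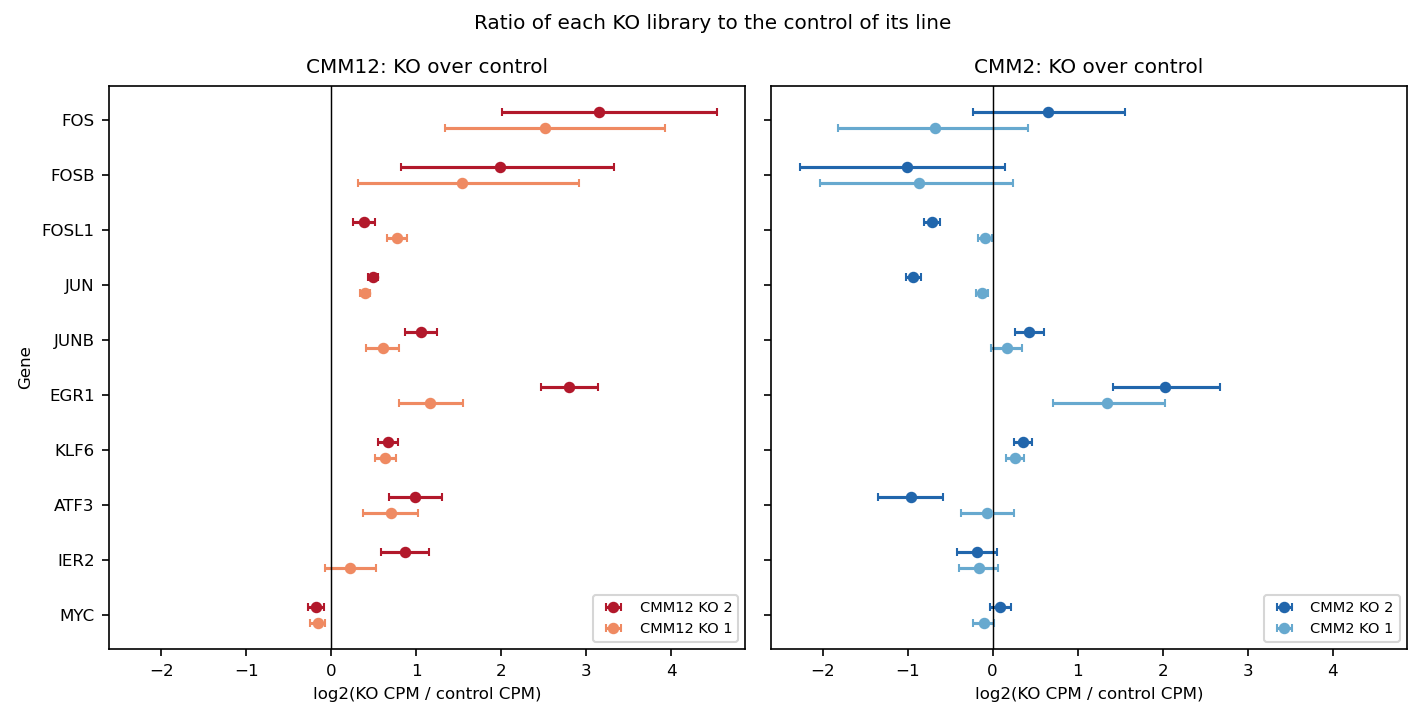
Points give the log2 ratio of each KO library's CPM to the control of its line for the 10 members, with exact counting intervals as bars and the CMM12 libraries drawn apart from the CMM2 libraries. EGR1, KLF6 and JUNB lie above 0 in all 4 KO libraries, while FOSB, FOSL1, JUN, ATF3 and IER2 lie above 0 in CMM12 and below 0 in CMM2.

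Both lines together had EGR1, KLF6 and JUNB above the control of the line in all 4 KO libraries, a pattern of 10.5% of all tested genes, and no member below it in all 4, against 10.6%. In the model of line and genotype, the log2 fold change of KO over control was 1.98 for EGR1 (SE 0.51), 0.57 for JUNB (SE 0.23) and 0.48 for KLF6 (SE 0.16). It was 1.27 for FOS (SE 0.80), 0.24 for FOSB (SE 0.77), 0.18 for IER2 (SE 0.28), 0.16 for ATF3 (SE 0.39), 0.08 for FOSL1 (SE 0.29), −0.04 for JUN (SE 0.29) and −0.09 for MYC (SE 0.15), so 8 of 10 were above 0, as were 52% of all tested genes. Without the CMM12 control only CMM2 sets KO against control in this model, so its values repeat the effect in CMM2. FOSB (−0.93), FOSL1 (−0.37), ATF3 (−0.44) and IER2 (−0.18) then lay below 0 and FOS was at 0.13. For all genes, edgeR called 0 of 12270 (0%), DESeq2 called 9 (0.0733%), and 495 had an unadjusted edgeR p under 0.05.

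The effect in CMM12 minus the effect in CMM2 was 2.72 for FOS (SE 1.23), 2.69 for FOSB (SE 1.18), 1.29 for ATF3 (SE 0.64), 0.96 for FOSL1 (SE 0.48), 0.92 for JUN (SE 0.51) and 0.76 for IER2 (SE 0.51) on the log2 scale. It was smaller for JUNB (0.55, SE 0.43), EGR1 (0.48, SE 1.01), KLF6 (0.35, SE 0.32) and MYC (−0.16, SE 0.33), so 9 of 10 were above 0, as were 49.1% of all tested genes. Without CMM12 KO 2 the difference for EGR1 was −0.56. FOSB, FOSL1, JUN, ATF3 and IER2 were above the control in both CMM12 KO libraries and below it in both CMM2 KO libraries, a pattern of 11% of all tested genes. The opposite pattern was seen in 10.2% of tested genes and in no member. For all genes, edgeR called no difference between the lines (0%), DESeq2 called 22 genes (0.179%) and 471 had an unadjusted edgeR p under 0.05.

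CMM12 was then set against CMM2 over 3 libraries each, a contrast other than the KO and control values that chose the members, although earlier results of these data were known when they were picked. JUN, EGR1 and MYC were higher in CMM12 by edgeR's quasi-likelihood test, 3 of the 10 members, when 25.8% of all tested genes were called, 14.6% as higher and 11.2% as lower in CMM12. The share of members called was thus near the background. The fitted difference was above 0 for 6 of 10 members and for 52.2% of all tested genes. DESeq2 called the same 3 and also FOSL1 and KLF6 as lower in CMM12, 5 of 10 against 32.2% of all tested genes.

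MYC had 167, 170 and 189 CPM in CMM12 KO 2, KO 1 and control, against 107, 93.4 and 100.4 CPM in the same order in CMM2. The groups did not overlap, with 176 ± 12.1 CPM in CMM12 and 100.1 ± 6.61 CPM in CMM2 (SD, n = 3 each). Each SD between the lines, here and below, spans the control and both KO libraries of a line. It therefore includes their difference in genotype and is not a spread of replicates. The log2 difference was 0.81 (SE 0.15), with an edgeR adjusted p of 0.00859, and MYC stayed called when any single library was left out (adjusted p 0.0100 to 0.0494).

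JUN averaged 443 ± 76.4 CPM in CMM12 and 233 ± 73.1 CPM in CMM2 (SD, n = 3 each), and its lowest CMM12 value, 357 CPM in the control, lay above its highest CMM2 value, 287 CPM in the control. The log2 difference was 0.93 (SE 0.28), with an edgeR adjusted p of 0.0445. JUN was no longer called without CMM2 KO 1 (adjusted p 0.0960), CMM2 KO 2 (0.0544), CMM12 KO 1 (0.101) or CMM12 KO 2 (0.132). Between the control libraries alone the log2 difference was 0.32, between KO 1 libraries 0.84 and between KO 2 libraries 1.75, values with no test.

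EGR1 averaged 26.1 ± 24.1 CPM in CMM12 and 6.79 ± 4.10 CPM in CMM2 (SD, n = 3 each), and the lines overlapped, since the CMM12 control at 7.68 CPM lay below CMM2 KO 2 at 10.9 CPM. Within each kind of library CMM12 was the higher, with log2 differences of 2.29 for KO 2, 1.34 for KO 1 and 1.52 for the controls. The fitted difference was 1.85 (SE 0.45), with an edgeR adjusted p of 0.0222. EGR1 was no longer called without the CMM12 control (adjusted p 0.0605), CMM12 KO 2 (0.0774), the CMM2 control (0.0640) or CMM2 KO 1 (0.0953), and the fitted difference without CMM12 KO 2 was 1.19. With either control left out the line difference rests on the KO libraries alone, so those fits are not separate checks.

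FOSL1 was lower in every CMM12 library than in every CMM2 library, as were 21.5% of tested genes, with 108 ± 28.9 CPM in CMM12 and 194 ± 48.2 CPM in CMM2 (SD, n = 3 each). Its log2 difference of −0.86 (SE 0.27) missed the threshold with edgeR (adjusted p 0.0533) and passed it with DESeq2 (adjusted p 0.0131). edgeR also called FOSL1 with no low-count filter (adjusted p 0.0199), with the replicate block (0.0446), without CMM2 KO 2 (0.0143) and without CMM12 KO 1 (0.0477). JUN and MYC were the members above CMM2 in every CMM12 library, a pattern of 24.6% of tested genes. JUN and FOSL1, which can pair with each other, thus lay on opposite sides between the lines in these libraries.

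KLF6 averaged 113 ± 27.0 CPM in CMM12 and 146 ± 18.0 CPM in CMM2 (SD, n = 3 each), with a log2 difference of −0.40 (SE 0.15) and an edgeR adjusted p of 0.0889. IER2 averaged 20.2 ± 6.60 CPM in CMM12 and 27.5 ± 1.98 CPM in CMM2, with a difference of −0.46 (SE 0.26). The other 4 members had differences close to or below their error, 0.38 for ATF3 (SE 0.36), 0.38 for FOS (SE 0.72), 0.40 for FOSB (SE 0.71) and −0.18 for JUNB (SE 0.21), and edgeR adjusted p from 0.469 to 0.728. For FOS, FOSB and ATF3 the sign depended on the kind of library, with log2 differences of −1.59, −1.47 and −0.49 between the controls. So did the sign for JUNB and IER2, with −0.54 and −0.97 between the controls but 0.08 for each between the KO 2 libraries.

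**Figure D4:**
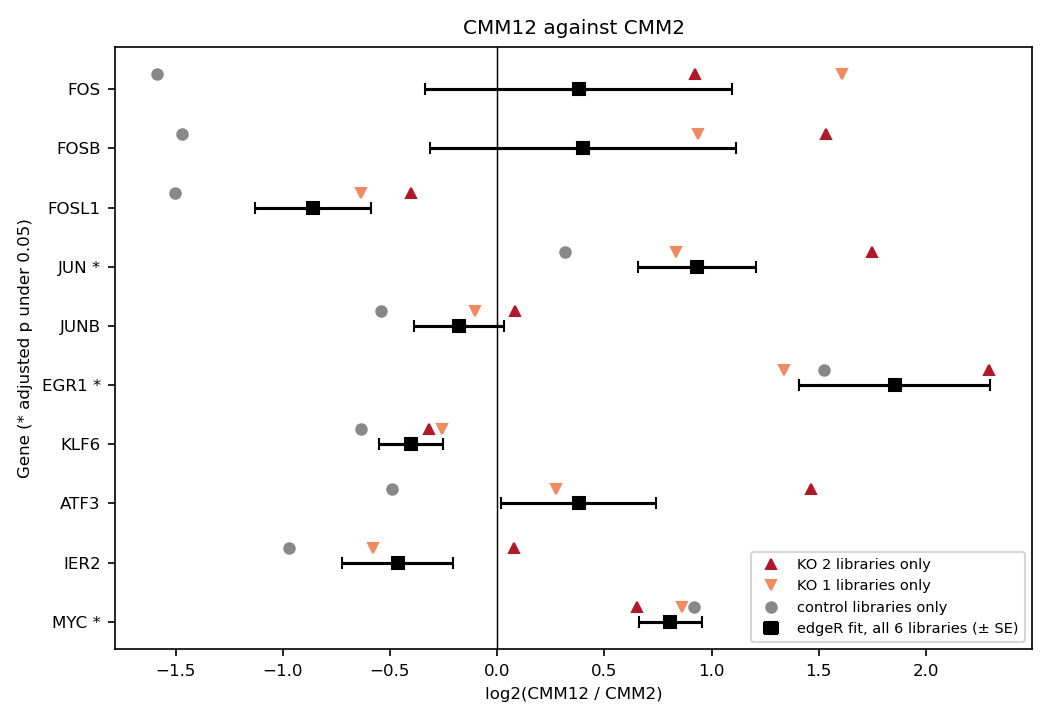
Points give the log2 fold change of CMM12 over CMM2 for each member from edgeR's model of line and genotype, with bars of 1 SE, beside the differences within each kind of library. MYC, EGR1 and JUN pass the threshold above 0, and the control libraries lie on the other side of 0 from the fit for FOS, FOSB and ATF3.

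The KO lines of each number were compared across both lines, which uses no control library in the difference. EGR1 had 53.3 CPM in CMM12 KO 2 against 17.2 CPM in CMM12 KO 1, and 10.9 CPM in CMM2 KO 2 against 6.82 CPM in CMM2 KO 1, ratios of 3.09 and 1.60. The fitted log2 difference of KO 2 over KO 1 was 1.18 (SE 0.33), with an unadjusted edgeR p of 0.00937 and an adjusted p of 0.943, so EGR1 was not called. For all genes edgeR called 0 of 12270 (0%), 560 had an unadjusted p under 0.05 and DESeq2 called 27 (0.22%), with no member among them. FOS and FOSB got no adjusted p from DESeq2 in this comparison, so it could not call them. The same number in both lines is a label only, and nothing in the labels says that it marks a shared guide or batch.

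FOS (0.87, SE 0.79), JUNB (0.37, SE 0.24) and KLF6 (0.06, SE 0.20) also had more CPM in KO 2 than in KO 1 in both lines, together with EGR1 4 of the 10 members, against 25.2% of tested genes. FOSL1 had fewer in both lines (−0.50, SE 0.29), a pattern of 23.9% of tested genes. For JUN, ATF3, FOSB, IER2 and MYC the numbers were ordered differently in the 2 lines. JUN had a KO 2 to KO 1 ratio of 1.07 in CMM12 and 0.570 in CMM2, and ATF3 1.22 in CMM12 and 0.535 in CMM2. The fitted difference was above 0 for 7 of 10 members and for 50.9% of all tested genes. The edgeR adjusted p of the 9 members other than EGR1 lay between 0.943 and 0.986.

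EGR1, JUNB and KLF6 shared the order KO 2 above KO 1 above control in both lines, which 3.95% of all tested genes had. EGR1 had the largest steps of the 3, while KLF6 differed by ratios of only 1.02 in CMM12 and 1.07 in CMM2 between KO 2 and KO 1. The part of this order that places the control lowest was known when the members were chosen.

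Profiles like that of EGR1 were sought among the 8023 other genes with a symbol and a mean of at least 10 CPM, by the root mean square distance of log2(CPM + 1) centred on each gene's mean over the 6 libraries. The nearest were SEMA3A at a distance of 0.37, TUBB4A at 0.48, MTSS1 at 0.49, IL27RA at 0.53 and TIMP1 at 0.55, where the median candidate lay at 1.25. SEMA3A, a secreted guidance ligand, had 176 CPM in CMM12 KO 2 and 111 CPM in CMM12 KO 1, against 51.3 CPM in the CMM12 control. It had 43.9 and 25.9 CPM in CMM2 KO 2 and KO 1, against 13.6 CPM in the CMM2 control. Its 6 libraries stood in nearly the same order as those of EGR1, which a search by distance selects for. TIMP1, an inhibitor of matrix metalloproteinases, had 1856 and 1118 CPM in CMM12 KO 2 and KO 1, against 466 CPM in the CMM12 control. In CMM2 it had 1273 and 282 CPM in KO 2 and KO 1, against 232 CPM in the control. Not every neighbour lay above the control in all KO libraries, as EGR1 did. TUBB4A had 6.47 CPM in CMM2 KO 1, against 7.26 CPM in the CMM2 control. IL27RA had 39.6 CPM in CMM12 KO 1, against 44.1 CPM in the CMM12 control.

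**Figure D5:**
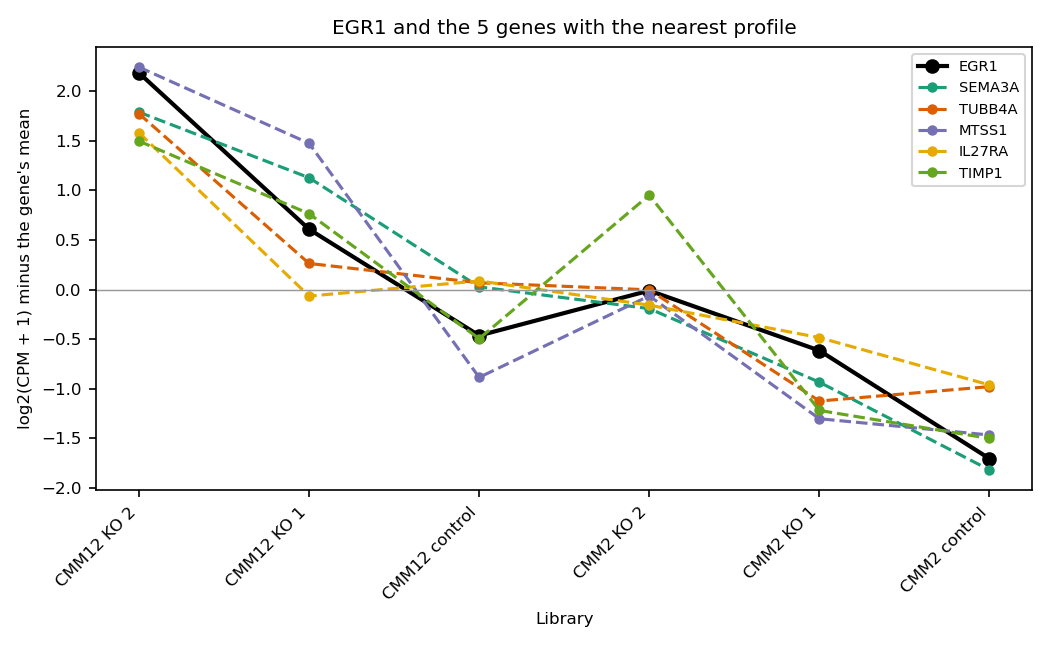
Lines join the 6 libraries, from CMM12 KO 2, KO 1 and control to CMM2 KO 2, KO 1 and control, for EGR1 and the 5 genes nearest to its profile, as log2(CPM + 1) centred on each gene's mean. The distances from EGR1 run from 0.37 for SEMA3A to 0.55 for TIMP1.

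The other genes of the pathway were taken from fixed lists, chosen with results of these data already known, and no listed gene was called by edgeR in any comparison of KO with control. Of the 15 other immediate early transcription factors tested, 12 had a log2 fold change above 0 in CMM12 KO over control, with a median of 0.84, and 52.1% of all tested genes were above 0. The values at or above that median all came from scarce genes, with at most 3.11 CPM in the CMM12 control. The other values ran from −0.95 to 0.23. In CMM2, 11 of the 15 were above 0, with a median of 0.15, against 50.1% of all tested genes. Among the most abundant, FOSL2 had 44.8 and 81.8 TPM in CMM12 KO 2 and KO 1, against 120 TPM in the CMM12 control, so it lay on the other side from FOSL1. KLF10, a factor of the TGF-beta response, had 83.1 and 66.9 TPM, against 77.3 TPM in the CMM12 control. BHLHE40, a repressor of the circadian clock, had 46.7 and 29.9 TPM, against 47.7 TPM in the CMM12 control, but 79.1 and 66.5 TPM in CMM2 KO 2 and KO 1, against 44.3 TPM in the CMM2 control.

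EGR2 and EGR3, the closest relatives of EGR1 and named as such after their values were seen, had 5.51 and 12.2 TPM in CMM12 KO 2. In CMM12 KO 1 they had 1.33 and 0.87 TPM, against 0.56 and 0.33 TPM in the CMM12 control. The control values rest on few reads, 0.604 CPM for EGR2 and 0.259 CPM for EGR3, the level of 3 counts. In CMM2 KO 2 and KO 1, EGR2 had 0.32 and 0.43 TPM, against 0.31 TPM in the CMM2 control. EGR3 had 0.66 and 0.1 TPM there, against 0 in the CMM2 control. NAB2, a co-repressor that binds EGR1, had 41.1 TPM in CMM12 KO 2 and 21.0 TPM in KO 1, against 15.2 TPM in the CMM12 control. It had 24.9 and 20.7 TPM in CMM2 KO 2 and KO 1, against 20.4 TPM in the CMM2 control. NAB1, its relative, had 13.1 and 12.2 TPM in CMM12 KO 2 and KO 1, against 15 TPM in the CMM12 control.

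Other immediate early genes, which do not encode transcription factors, were above 0 in 11 of 20 cases in CMM12, with a median log2 fold change of 0.02. In CMM2 5 of 20 were above 0, with a median of −0.21. CCN1, a matrix protein of the serum response, had 93.4 and 114 TPM in CMM12 KO 2 and KO 1, against 204 TPM in the CMM12 control. IER3 had 164 and 233 TPM, against 206 TPM, and the survival factor MCL1 had 57.4 and 64.2 TPM, against 74.6 TPM. Of the 16 upstream factors and kinases, 8 were above 0 in CMM12 and 10 in CMM2, with medians of 0.02 and 0.12. ELK3 had 156 and 160 TPM in CMM12 KO 2 and KO 1, against 132 TPM in the control, and MAP2K2 had 180 and 153 TPM, against 159 TPM.

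Of the 13 other AP-1 and bZIP partners, 6 were above 0 in CMM12 and 8 in CMM2, with medians of −0.01 and 0.04. ATF4, the stress factor upstream of ATF3, had 452 and 448 TPM in CMM12 KO 2 and KO 1, against 298 TPM in the CMM12 control. It had 535 and 683 TPM in CMM2 KO 2 and KO 1, against 590 TPM in the CMM2 control, so it lay on the same side of the control as ATF3 in all KO libraries except CMM2 KO 1. Of 13 reported AP-1 target genes, 9 were above 0 in CMM12 and 7 in CMM2. MMP1, an interstitial collagenase, had 726 and 471 TPM in CMM12 KO 2 and KO 1, against 96.7 TPM in the CMM12 control, and at most 5.36 TPM in a CMM2 library. Cyclin D1 (CCND1) had 229 and 182 TPM, against 114 TPM in the CMM12 control, and CD44 had 264 and 235 TPM, against 161 TPM. In CMM2 KO 2 and KO 1, CCND1 had 146 and 159 TPM, against 126 TPM in the CMM2 control. CD44 had 247 and 161 TPM there, against 140 TPM, so both genes were above the control in both lines, unlike JUN and FOSL1.

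Of 18 reported MYC target genes, 7 were above 0 in CMM12 KO over control and 1 in CMM2, with medians of −0.03 and −0.17. The ribosome assembly genes NPM1 and NCL had 2629 and 1149 TPM in CMM2 KO 2 and 2826 and 1272 TPM in CMM2 KO 1, against 3768 and 1350 TPM in the CMM2 control. In CMM12 NPM1 had 1637 TPM in KO 2 and 2744 TPM in KO 1, against 1954 TPM in the control, and NCL had 628 and 601 TPM, against 950 TPM. Of 9 genes of the MYC network, 6 were above 0 in CMM12 and 5 in CMM2. MAX, the partner of MYC, had 71.7 and 50.4 TPM in CMM12 KO 2 and KO 1, against 66.2 TPM in the CMM12 control.

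Between CMM12 and CMM2, edgeR called NR4A1 (log2 2.99, SE 0.51), KLF10 (0.88, SE 0.15) and JUND (0.84, SE 0.18) as higher in CMM12 among the 15 other immediate early transcription factors, and none as lower, where 14.6% of all tested genes were called higher and 11.2% lower. MAX was higher in CMM12 (0.87, SE 0.17, adjusted p 0.0106), as MYC was. CCN1 was lower in CMM12 (−1.35, SE 0.24, adjusted p 0.00812), one of 3 called lower and 4 called higher among the 20 other immediate early genes. Of the reported AP-1 targets 5 of 13 were called higher and none lower, among them MMP1 (7.37, SE 0.76). Of the reported MYC targets 1 of 18 was called higher and 4 lower in CMM12, among them NCL (−0.94, SE 0.16), although MYC itself was higher there.

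Heat shock and dissociation stress genes were listed because handling of cells can raise immediate early genes. In CMM12 6 of 7 were above 0 in KO over control and in CMM2 1 of 7, with median log2 fold changes of 0.31 and −0.23. Their summed level was 7314 TPM in CMM12 KO 2 and 6196 TPM in KO 1, against 6370 TPM in the CMM12 control, and 3355 and 4760 TPM in CMM2 KO 2 and KO 1, against 5726 TPM in the CMM2 control. The list thus moved in part with the members that were above the control in CMM12 and below it in CMM2, and its part in their values was not tested. The list was not uniform: HSP90AA1 had 3033 and 2498 TPM in CMM12 KO 2 and KO 1, against 3096 TPM in the CMM12 control, and HSPB1, named after its values were seen, had 131.7 and 66.7 TPM in CMM2 KO 2 and KO 1, against 40.2 TPM in the CMM2 control. HSPA8, a constitutive chaperone, had 3651 and 3263 TPM in CMM12 KO 2 and KO 1, against 2888 TPM in the CMM12 control. It had 1719 and 2433 TPM in CMM2 KO 2 and KO 1, against 3095 TPM in the CMM2 control.

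Of 6 messenger RNA decay factors, 3 were above 0 in CMM12 and 2 in CMM2. ZFP36L1, which binds AU-rich elements of short-lived transcripts, had 121 and 88.2 TPM in CMM12 KO 2 and KO 1, against 74.0 TPM in the control, and 63.2 and 57.1 TPM in CMM2 KO 2 and KO 1, against 39.9 TPM in the control. HNRNPD, which also binds such elements, had 150.4 and 245 TPM in CMM12 KO 2 and KO 1, against 332 TPM in the control, and KHSRP had 62.8 and 60.5 TPM, against 64.7 TPM. Fibroblast markers summed to 1671 TPM in CMM12 KO 2 and 949 TPM in KO 1, against 2298 TPM in the CMM12 control, and to 2777 and 787 TPM in CMM2 KO 2 and KO 1, against 342 TPM in the CMM2 control. One of the 8 fibroblast markers, POSTN, was under 1 TPM throughout. The sums were mostly collagen transcripts. THY1, named after its values were seen, had 313 and 131 TPM in CMM12 KO 2 and KO 1, against 115 TPM in the CMM12 control, and was at 0 in every CMM2 library. The part of these markers in the members' values was not tested.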

How the data were processed

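RNA was sequenced from 6 libraries of the canine melanoma lines CMM12 and CMM2, in each line 2 podoplanin KO libraries and 1 control, grouped by the titles and genotypes in the labels. RNA was purified on RNeasy columns and libraries were made with a NEBNext Ultra kit, per the labels' protocols. The submitters' processing notes list the aligner STAR 2.7.3a, the quantifier RSEM 1.3.3 and the genome CanFam3.1. Strand use in counting was not found in those notes or labels, so an antisense partner's reads cannot be told from a gene's own. The authors deposited unscaled expected counts for each gene and library, per the file headers. The authors also deposited TPM, which divide by transcript length and sum to a fixed total per library. Rows without a symbol, 12940 of 30951, held 7.89% to 8.85% of each library and were kept for totals and tests.

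Expected counts were rounded, which changed 3.22% to 3.63% of values, and tested with edgeR 4.0.16 in R 4.3.3 (glmQLFit, TMM factors, filterByExpr on the 4 groups, Benjamini-Hochberg adjustment at 0.05 over 12270 genes). SE is the log2 fold change divided by the root of the quasi-likelihood F. The contrast of CMM12 with CMM2 and the KO effect across lines came from line plus genotype (3 residual degrees of freedom). The KO effect per line and their difference came from 4 group means, and KO 2 against KO 1 from line plus library kind (2 each), where a lone control is assumed to vary like the KO libraries. With a single library of each kind in a line, the residual of that last model is how the kinds differ between the lines. CPM are rounded counts over TMM-scaled totals. Poisson and binomial intervals are exact at 95%, and intervals and floors cover counting error only.

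The members and gene lists were chosen with earlier results of these data known. Named were all members, PDPN, the 3 genes of each list with the highest mean TPM and the 5 genes nearest to EGR1; of these, the text gives values for the genes its sentences turn on, and 1 listed gene is not reported here. Alternatives were DESeq2 1.42.0 (which left 1903 genes in the KO number and 1190 in the CMM12 comparison without an adjusted p), median-of-ratios factors, testing every gene with a count, requiring 1 CPM in 2 libraries, limma 3.58.1 on log2(TPM + 1) and log2(TPM + 0.1) over genes reaching 1 TPM in any library, limma on all genes, a replicate block, KO libraries only and leaving out each library. The difference between control libraries alone was added after seeing the data. The models were tested on simulated data. No genome or sequence of the build was used here.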

Additional observations from a re-analysis of the deposited data

Results flagged for a closer look

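For 5 members both CMM12 KO libraries lay above the control of their line and both CMM2 KO libraries below theirs. The KO effect in CMM12 minus the effect in CMM2 was 2.69 on the log2 scale for FOSB, 0.96 for FOSL1, 0.92 for JUN, 1.29 for ATF3 and 0.76 for IER2. This order was flagged from the sides alone, and 11% of all 12270 tested genes showed it. The edgeR test of the difference over all genes called none of them. Nothing further is read from that test for these genes, since KO and control values chose them. FOSB had 8 to 28 counts in a library, so its value is the least certain of the 5.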

How the results depend on the processing

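Between CMM12 and CMM2 edgeR called 3170 genes (1792 higher and 1378 lower in CMM12), and limma on log2(TPM + 1) called 2004 higher and 934 lower, with a median log2 difference of all genes of 0.15 in place of 0.04. Relative to that median JUN, EGR1 and MYC were still higher and were called. The count was 470 with limma without a filter, 1694 over KO libraries only and 1499 to 3096 with 1 library left out. Of the members 3 were called, 5 with DESeq2, 4 with edgeR without the low-count filter, 0 with limma without a filter and 1 to 3 with a library left out. With limma without a filter MYC had an adjusted p of 0.0543, and over KO libraries only EGR1 had 0.0626; MYC was called in its other alternatives.

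Genes called between KO 2 and KO 1 numbered 0 with edgeR, 27 with DESeq2, 4 without the low-count filter, 3 with limma without a filter and 0 to 58 with a library left out (58 without CMM12 KO 2). The KO effect across lines had 0 calls, 9 with DESeq2, 15 without the low-count filter, 3 on log2(TPM + 1), 2 on log2(TPM + 0.1), 11 with limma without a filter, 1 with the replicate block and 0 to 1 with a library left out. In CMM12 there was 1 call, 45 with DESeq2, 26 without the low-count filter, 0 with the 1 CPM filter, 0 with limma on either pseudocount, 457 with limma without a filter and 0 to 14 with a library left out (14 without CMM12 KO 2). In CMM2 the 0 calls became 6, 1 and 182 with DESeq2, no low-count filter and limma without a filter, and for the difference of the lines 22, 2 and 584, each 0 to 1 with a library left out. The cause of these differences in counts was not tested.

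Signs turned in CMM12 against CMM2 for FOS (−1.59), FOSB (−1.47) and ATF3 (−0.49) between controls alone, for JUNB (0.0028) over KO libraries only, and with a library left out for FOS (−0.24 to 1.16) and JUNB (−0.37 to 0.0049). Between KO 2 and KO 1 they turned with a library left out for FOSB (−0.81 to 0.93), KLF6 (−0.046 to 0.17), JUN (−0.95 to 0.23), ATF3 (−1.10 to 0.48), MYC (−0.024 to 0.20) and IER2 (−0.12 to 0.75). Of the 160 member values between the lines 134 kept their direction and call, where values between controls alone had no test and were judged by direction only. Of 130 between KO numbers 122 kept both. Of 140 member values of the KO effect across lines, 24 moved by more than the SD between KO libraries and 8 changed sign. Leaving out either control reduces that effect to the effect in the other line. KO numbers did not pair the samples, since only 2 lines share them and the KO 2 minus KO 1 differences correlated at 0.055 between lines across genes. With the replicate block 2959 genes were called between the lines and 4 members, FOSL1 being added (adjusted p 0.0446). A single control per line and few counts of FOS and FOSB limit all values.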

Other observations

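The KO to control ratio of KLF6 in CMM12 KO 1 was 1.56 in CPM and 1.20 in TPM, a log2 gap of −0.37, while the gap for JUNB in that library was −0.12. Transcript variants of KLF6 were not analysed here.

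Reported MYC target genes were below 0 in 17 of 18 cases in the KO effect in CMM2, in the KO effect across lines and in KO 2 over KO 1. The median log2 values were −0.17, −0.16 and −0.16. Of all tested genes 50.1%, 52% and 50.9% were above 0 in the same order. These comparisons share libraries, and the corresponding values of MYC were −0.0050, −0.09 and 0.09. In the KO effect in CMM12 only 11 of the 18 were below 0, with a median of −0.03, and 52.1% of all tested genes were above 0.

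DDIT3, a stress factor named after its values were seen, had 52.3 and 46.1 TPM in CMM12 KO 2 and KO 1, against 13.6 TPM in the CMM12 control. In CMM2 it had 12.3 and 11.1 TPM in KO 2 and KO 1, against 11.6 TPM in the control. JDP2, an AP-1 repressor likewise named afterwards, had 16.2 to 28.2 TPM in the CMM12 libraries and 39.7 to 107 TPM in the CMM2 libraries, a log2 difference of −1.85 (SE 0.40, edgeR adjusted p 0.0155).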
